A study of Homo sapiens with 3 samples.

Results

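The DNA-replicating cells described here were 3292 of 33689 cells of the human colorectal carcinoma line HCT116, grown in a 2-channel organ-on-chip and measured by droplet single-cell RNA sequencing. A cell entered the analysis with at least 5000 UMIs (unique molecular identifiers, each standing for 1 captured RNA molecule) and at most 20% of them from mitochondrially encoded genes, which kept 33689 of 54788 barcodes. DNA-replicating cells were chosen by their UMI share of 8 replication genes (PCNA, MCM3, MCM4, MCM5, MCM6, GINS2, CDC6 and CCNE2): the top 10% of each library, less the cells that were also in the top 10% by 4 mitotic genes (CCNB1, CDC20, PLK1 and CENPF). This gave 1456 of 14870 cells in the not stretched top library, 1673 of 17182 in the stretched top library and 163 of 1637 in the stretched bottom library, and each set was compared with the rest of its own library.

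All cells carried a histone H2B-GFP label and had been sorted for GFP after detachment from the chip. The labels describe top-channel cells as not invaded and bottom-channel cells as invaded. Stretched chips were exposed to peristalsis-like stretch for 6 days, and the not stretched library came from the top channel of a chip without it. Each group was 1 library, a bottom library without stretch was not analysed here, and the number of chips behind a library is not given in the sources used here. With 1 library a group no test was possible, and cells of a library are not replicates, so every value below is a description of these libraries. Where 3 values or pairs of values follow each other, they are in the order not stretched top, stretched top, stretched bottom, and a pair gives DNA-replicating cells against the rest. Intervals are 95% intervals and cover counting error only. Those of ratios treat UMIs as independent, which UMIs of 1 cell are not, and those of shares of cells count cells.

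As background, a cell copies its DNA once per division. In G1, the origin recognition complex, CDC6 and CDT1 load the MCM2-7 helicase onto origins, and in S phase CDC45 and the GINS complex turn it into the active helicase, behind which PCNA holds the polymerases on DNA. Many genes of this machinery are switched on together by E2F transcription factors once cyclin-dependent kinases inactivate the retinoblastoma protein. Genes of mitosis follow later, in G2, and histone mRNA is made mostly while DNA is copied.

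The cut on the replication share lay at 1139, 1017 and 1132 UMIs in 1000000 (PPM) in library order. The 5 cells just inside it had 1139 to 1140, 1017 to 1019 and 1133 to 1138 PPM, and the 5 just outside had 1137 to 1139, 1016 to 1017 and 1127 to 1131 PPM. The set is thus cut by rank, and cells on either side of the cut hardly differ in this share. Close neighbours at a cut do not show whether the set forms a group of its own, which was not tested. A DNA-replicating cell held a median of 20, 14 and 56 UMIs of the 8 genes in library order, against 3, 3 and 22.5 in the rest. With every cell thinned to 5000 UMIs, a DNA-replicating cell held a median of 4 of the 8 genes in each library and a cell of the rest 1, 1 and 2. Only 31, 46 and 1 cells of the replication top 10% were also in the mitotic top 10%, which is 2.08% (1.42 to 2.95), 2.68% (1.97 to 3.55) and 0.610% (0.0154 to 3.35) of it by Clopper-Pearson intervals.

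Depth differed between channels more than between DNA-replicating cells and the rest. DNA-replicating cells had a median of 13818 UMIs against 11905 in the rest of the not stretched top library, 10994 against 10241 in the stretched top and 42405 against 45681.5 in the bottom. Their median mitochondrial share was lower in every library, at 7.99% against 10.0%, 9.01% against 10.5% and 3.99% against 4.14%. Of the kept cells, 64 barcodes were shared by the 2 top libraries, 5 by the not stretched top and the bottom and 4 by the stretched top and the bottom, and 1 of them was a DNA-replicating cell in both of its libraries. The epithelial adhesion gene EPCAM stood at 399 CPM (a gene's count scaled to 1000000 UMIs of the summed cells) in DNA-replicating cells of the not stretched top library, 410 in the stretched top and 491 in the bottom, within 0.08 on the log2 scale of the rest. Lists of 10 endothelial, 10 fibroblast and 10 leukocyte markers summed to 4.18 to 9.99 CPM in DNA-replicating cells, with 0 markers reaching 10 CPM in either set and 2 to 7 of each list at 0.

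The 8 genes of the rule, given as a description because they chose the cells, summed to 1429 CPM in DNA-replicating cells against 431 in the rest of the not stretched top library, 1282 against 387 in the stretched top and 1304 against 573 in the bottom. The level in DNA-replicating cells thus spanned 1282 to 1429 CPM, and the rest of the bottom library held more replication RNA than the rest of either top library. PCNA, the sliding clamp of the replication fork (ENSG00000132646, chromosome 20, 5114953 to 5126626, hg38), stood at 371 against 110 CPM, 352 against 108 CPM and 361 against 164 CPM. CCNE2, a cyclin that drives entry into S phase, had the highest ratio of the 8, with 37.7 against 5.66 CPM, 31.1 against 5.201 CPM and 53.7 against 11.6 CPM. Because the same UMIs chose and measured these cells, the UMIs of each cell were also split at random into a choosing set and a measuring set. The summed ratio of the 8 genes was then 2.56, 2.37 and 2.01, compared with 3.32, 3.31 and 2.28 when all UMIs did both. The choosing set picked partly other cells, of which 72.6%, 70.2% and 74.8% were in the sets described here. How much of the fall goes with that was not tested.

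Beyond the rule, genes were compared where DNA-replicating cells or the rest reached 10 CPM, and a gene was counted as higher or lower when the ratio of CPM + 1 passed 1.5-fold. In the not stretched top library 406 of 9309 genes were higher (4.36%) and 157 lower (1.69%). In the stretched top library 361 of 8881 were higher (4.06%) and 72 lower (0.811%). In the stretched bottom library 174 of 8442 were higher (2.06%) and 80 lower (0.948%). Genes higher in all 3 libraries numbered 130 of 8241 (1.58%), 122 of them outside the rule, and genes lower in all 3 numbered 10 (0.121%), 9 of them outside the rule. The rule used this contrast, so these counts are not evidence that the cells stand apart. With totals that leave out mitochondrially encoded and ribosomal protein genes, whose summed share was lower in DNA-replicating cells, 352 genes were higher and 292 lower in the not stretched top library, and 318 and 158 in the stretched top. When the bottom cells were ranked after thinning, 92 genes were higher and 134 lower there, and 13 of its 174 higher genes had over 25% of their UMIs in 1 DNA-replicating cell.

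The 10 genes outside the rule with the highest ratios in all 3 libraries were FAM111B, EXO1, E2F1, E2F2, WDR76, MCM10, E2F8, CLSPN, DTL and BRIP1. FAM111B, which encodes a serine protease, stood at 27.9 against 6.63 CPM, 19.7 against 5.24 CPM and 29.1 against 9.30 CPM. EXO1, an exonuclease of mismatch repair and DNA end resection (ENSG00000174371, chromosome 1, 241847967 to 241895148), was 4.09-fold higher in the not stretched top library (3.79 to 4.40), 3.72-fold in the stretched top (3.43 to 4.04) and 2.62-fold in the stretched bottom (2.29 to 2.99), at 48.1 against 11.8 CPM, 41.2 against 11.1 CPM and 40.2 against 15.4 CPM. CLSPN, which encodes the checkpoint adaptor claspin, stood at 136 against 42.3 CPM, 123 against 42.7 CPM and 119 against 58.9 CPM. DNA-replicating cells were above the rest for each of these genes in each library, and the ratio was smallest in the bottom library for all 10. BRIP1, a helicase of the Fanconi anaemia pathway, stood at 137 against 45.9 CPM, 119 against 43.5 CPM and 83.5 against 38.5 CPM. The 10 ratios ranged from 0.99 to 1.94 on the log2 scale over all 3 libraries, and with separate choosing and measuring UMIs every one of them stayed above the 1.5-fold line, as they did under every other alternative run. The 10 genes were picked as the highest on all UMIs, the measuring UMIs included, so this is not separate support for them.

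**Figure D1:**
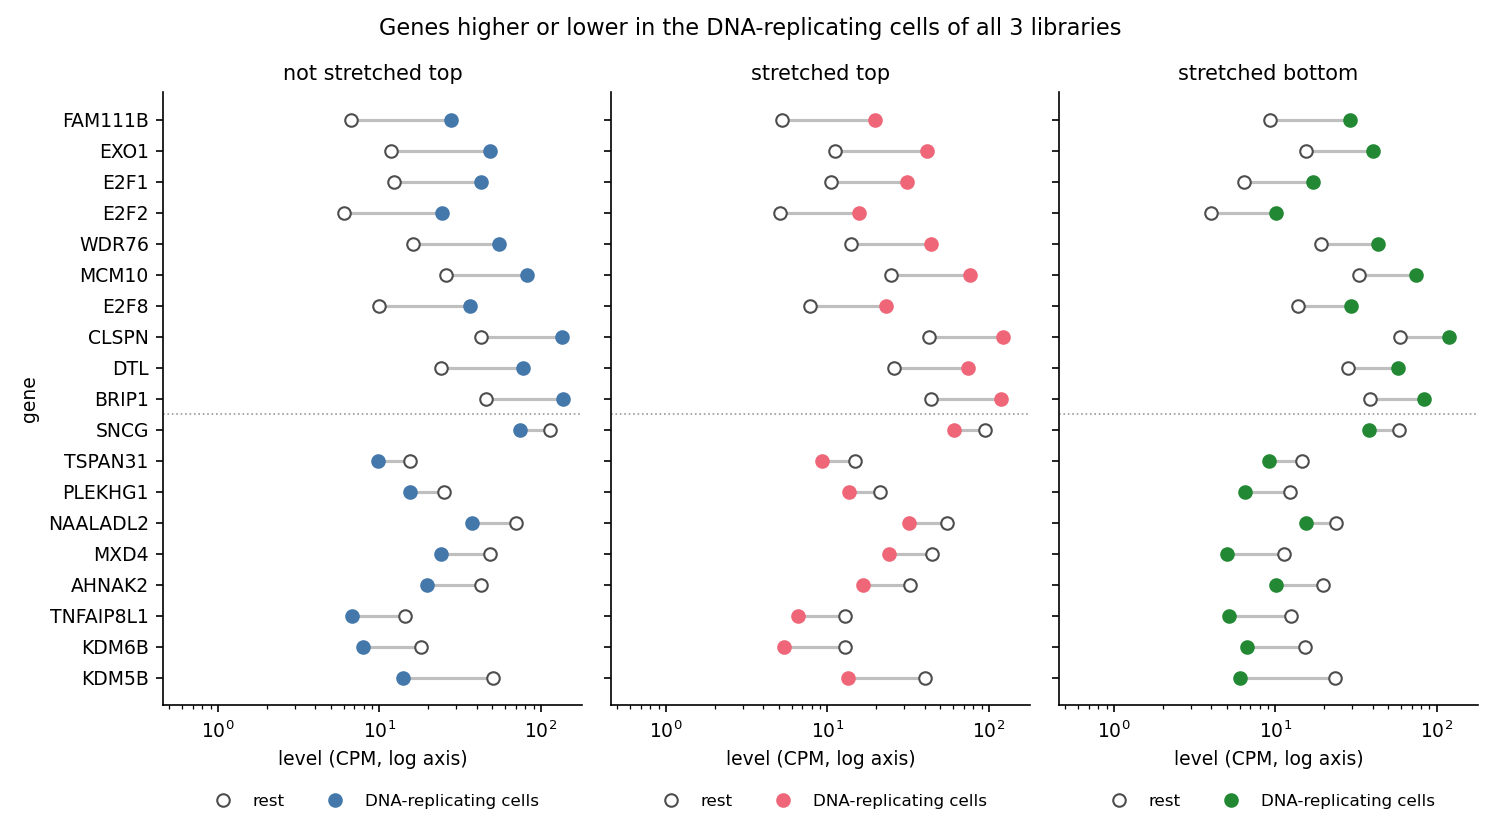
Level in CPM (log axis) of the 10 genes outside the rule that were highest (above the dotted line) and the 9 that were lowest (below it) in DNA-replicating cells of all 3 libraries, 1 panel a library, with filled points for DNA-replicating cells and open points for the rest. Each filled point of the upper block lies to the right of its open point and each of the lower block to the left, from FAM111B at 27.9 against 6.63 CPM to KDM5B at 13.9 against 50.7 CPM in the not stretched top library.

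E2F factors and G1/S control genes formed the list with the highest median outside the rule in each library. Of 15 genes, 14, 14 and 11 were at least 1.5-fold higher and 0 were lower. The list medians were 1.43, 1.24 and 0.81 on the log2 scale, against medians over all genes of 0.03, 0.06 and −0.01. When cells were ranked after thinning, this list was not the highest in the top libraries. Its medians were then 1.20, 0.98 and 0.75, against 1.26, 1.00 and 0.49 for replication-dependent histones. E2F1, an activator of S phase genes (ENSG00000101412, chromosome 20, 33675683 to 33686404), stood at 42.5 against 12.3 CPM, 31.0 against 10.6 CPM and 17.2 against 6.37 CPM. E2F2, a second activator, stood at 24.5 against 6.04 CPM, 15.7 against 5.09 CPM and 10.1 against 3.998 CPM, and E2F8, a repressor of the same targets, at 36.1 against 9.99 CPM, 23.0 against 7.78 CPM and 29.3 against 13.8 CPM. For E2F1 and E2F2 the level in DNA-replicating cells was highest in the not stretched top and lowest in the bottom library. The gene below the line in both top libraries was E2F3, another activator, with log2 ratios of 0.32, 0.40 and 0.22.

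Promoter sequence was examined because these genes moved together and several of them are known E2F targets. The windows came from RefSeq (GRCh38.p14), 1 start per gene, and reached from 250 bases before the start to 50 after it. The E2F motifs searched on both strands were TTTCCCGC, TTTGGCGC and TTTCGCGC, and the CHR motifs of G2/M genes were TTTGAA and TTTAAA, of which TTTAAA reads the same on both strands. Of the 50 genes outside the rule with the highest mean ratio over the 3 libraries, 43 had a window, and 18 of the 43 (41.9%) held an E2F motif, compared with 367 of 6848 genes compared in all 3 libraries (5.36%) and 763 of 27305 windows in the table (2.79%). A CHR motif was found in 6 of the 43 (14.0%), in 15.1% of the genes compared and in 24.3% of all windows. The 250 bases before the start are shown for the 4 genes of highest ratio that hold an E2F motif there, 5′ to 3′ on the strand of the gene, with the motif in capitals. E2F1 lies at chr20:33686386-33686635 (minus strand), E2F2 at chr1:23531234-23531483 (minus strand), DTL at chr1:212035498-212035747 (plus strand) and UHRF1 at chr19:4909251-4909500 (plus strand).
E2F1: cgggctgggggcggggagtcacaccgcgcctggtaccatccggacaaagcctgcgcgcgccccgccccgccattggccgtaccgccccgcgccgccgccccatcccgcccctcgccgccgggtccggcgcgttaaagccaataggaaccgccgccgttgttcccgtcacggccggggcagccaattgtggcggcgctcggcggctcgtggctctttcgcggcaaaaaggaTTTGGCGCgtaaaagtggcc
E2F2: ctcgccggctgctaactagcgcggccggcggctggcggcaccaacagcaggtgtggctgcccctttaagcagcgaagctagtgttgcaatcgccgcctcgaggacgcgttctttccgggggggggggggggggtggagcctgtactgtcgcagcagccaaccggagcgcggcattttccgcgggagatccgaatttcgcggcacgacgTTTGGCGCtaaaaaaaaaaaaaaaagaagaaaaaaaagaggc
DTL: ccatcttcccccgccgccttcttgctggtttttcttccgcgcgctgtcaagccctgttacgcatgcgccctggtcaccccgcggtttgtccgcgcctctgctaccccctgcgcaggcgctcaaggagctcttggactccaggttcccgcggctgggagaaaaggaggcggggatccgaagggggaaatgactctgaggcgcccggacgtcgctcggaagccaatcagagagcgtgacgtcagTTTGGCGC
UHRF1: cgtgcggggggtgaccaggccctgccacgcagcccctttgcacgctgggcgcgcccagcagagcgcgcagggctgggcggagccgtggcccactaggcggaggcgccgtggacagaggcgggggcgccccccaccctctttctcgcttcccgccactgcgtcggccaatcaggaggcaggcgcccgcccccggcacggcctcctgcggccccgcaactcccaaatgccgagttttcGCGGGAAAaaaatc
The first 3 hold TTTGGCGC on the strand of the gene, beginning 20, 42 and 8 bases before the start, and UHRF1 holds TTTCCCGC on the other strand (GCGGGAAA as printed), 14 bases before it. DTL, the receptor subunit of a ubiquitin ligase that removes CDT1 at the fork, stood at 77.9 against 23.9 CPM, 74.4 against 25.7 CPM and 57.1 against 28.3 CPM. UHRF1, which brings the maintenance DNA methyltransferase to new DNA, had log2 ratios of 1.52, 1.44 and 1.08. A match in these letters is a description of the sequence, and binding was not measured.

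Origin licensing and firing genes followed, with 22, 22 and 14 of 28 at least 1.5-fold higher, 0 lower and list medians of 1.04, 1.00 and 0.58. MCM10, a factor of helicase activation, stood at 82.4 against 26.0 CPM, 76.5 against 24.9 CPM and 74.4 against 32.7 CPM. CDC45, a subunit of the active helicase, stood at 54.1 against 17.4 CPM, 41.8 against 15.2 CPM and 50.3 against 23.7 CPM. The origin recognition complex did not move as a block: ORC1 had log2 ratios of 1.42, 1.28 and 0.96 and ORC6 of 1.36, 1.17 and 0.71, while ORC2 had −0.22, −0.02 and −0.28, ORC4 −0.04, −0.01 and −0.05 and ORC5 0.14, 0.24 and −0.05. MCM2, a helicase subunit outside the rule, stood at 91.7 against 34.2 CPM, 65.7 against 26.1 CPM and 68.8 against 34.3 CPM, and the licensing factor CDT1 and its inhibitor GMNN were both higher, with 1.24, 1.09 and 0.93 for CDT1 and 1.05, 1.02 and 0.75 for GMNN.

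Of the polymerase and fork protein genes, 24 of 31, 23 of 31 and 12 of 32 were higher and 0 lower, with medians of 0.98, 0.88 and 0.51. DSCC1, part of an alternative PCNA loader, had the highest ratios, 1.49, 1.35 and 0.96, and the flap endonuclease FEN1 (1.35, 1.30 and 0.87) and the clamp loader subunit RFC4 (1.30, 1.19 and 0.87) lay close to it. Subunits of 1 polymerase differed: POLD3 of DNA polymerase delta had 1.06, 1.06 and 0.63, while POLD2 of the same enzyme had 0.37, 0.34 and 0.21. Nucleotide synthesis genes were higher in 11, 10 and 6 of 26 cases and lower in 0, with medians of 0.52, 0.50 and 0.29. Those higher in all 3 libraries included the ribonucleotide reductase subunit RRM2 at 258 against 99.1 CPM, 239 against 96.8 CPM and 232 against 138 CPM. IMPDH2, an enzyme of guanine nucleotide synthesis, lay close to the rest, at 213 against 214 CPM, 178 against 187 CPM and 159 against 156 CPM.

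Chromatin assembly and DNA methylation genes were higher in 13, 12 and 7 of 15 cases and lower in 0, with medians of 0.82, 0.80 and 0.57. CHAF1A, the large subunit of the histone chaperone CAF-1, stood at 89.3 against 30.7 CPM, 72.4 against 27.1 CPM and 58.0 against 30.1 CPM. The paralogs of the chaperone ASF1 differed, since ASF1B had log2 ratios of 1.44, 1.30 and 0.94 and ASF1A of 0.03, 0.05 and 0.03. Of 63 replication-dependent histone genes, 11, 8 and 17 reached 10 CPM in the order of libraries above, and 9, 7 and 9 of these were higher and 1, 1 and 0 lower, with medians of 1.31, 1.05 and 0.60. A gene near 10 CPM could enter through the side where it was higher, so these counts depend in part on that minimum. All 63 genes together summed to 895 against 406 CPM, 849 against 473 CPM and 1505 against 1007 CPM. Their mRNAs mostly lack a poly(A) tail, and near-identical copies make the value of any 1 of them uncertain. The linker histone gene HIST1H1E stood at 71.7 against 26.8 CPM, 47.8 against 21.8 CPM and 80.0 against 46.9 CPM. HIST1H2AC, which gave 13.2 against 18.1 CPM, 15.2 against 24.6 CPM and 31.7 against 36.2 CPM, went the other way and passed 1.5-fold lower in the stretched top library, and HIST1H2BN did so in the not stretched top at 6.58 against 10.5 CPM.

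DNA repair and replication checkpoint genes were higher in 30, 29 and 18 of 37 cases and lower in 0, with medians of 1.04, 1.01 and 0.57. UNG, which removes uracil from DNA, stood at 84.2 against 32.2 CPM, 89.2 against 36.6 CPM and 111 against 44.8 CPM, and its ratio in the bottom library (2.48-fold, 2.29 to 2.69) lay between those of the tops (2.62-fold and 2.43-fold). RAD54L, a motor protein of homologous recombination, stood at 30.8 against 10.5 CPM, 28.5 against 9.14 CPM and 17.7 against 10.2 CPM. The checkpoint kinase genes ATM and ATR, named as the lowest of this list by mean ratio, did not pass 1.5-fold. ATM stood at 37.2 against 43.1 CPM, 34.2 against 36.1 CPM and 32.5 against 32.5 CPM, and ATR had log2 ratios of 0.21, 0.22 and −0.14. Other checkpoint kinases are not given here. Cohesion genes were higher in 5, 5 and 2 of 13 cases. Among them, CDCA5 and ESCO2, which establish cohesion during S phase, had log2 ratios of 1.43, 1.23 and 0.74 and of 1.35, 1.28 and 0.67, while NIPBL, which loads cohesin throughout the cycle, had −0.11, 0.08 and −0.07.

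**Figure D2:**
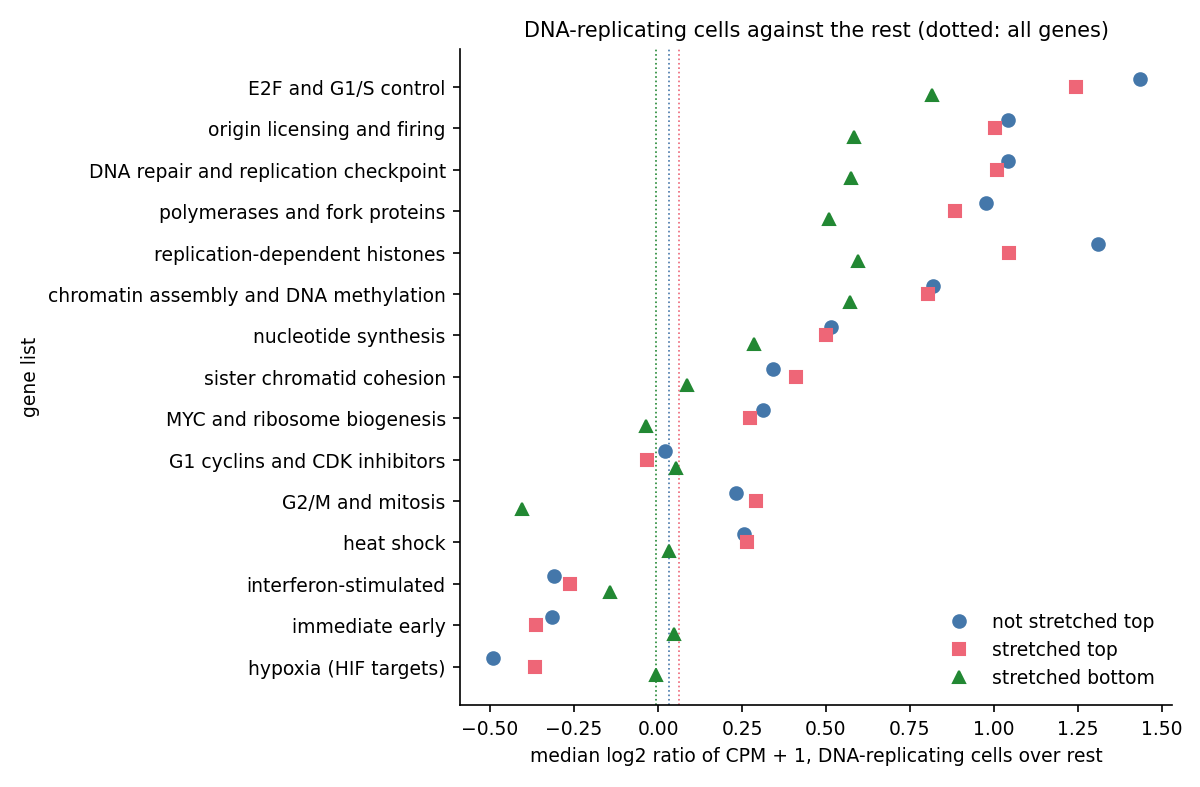
Median log2 ratio of CPM + 1 of DNA-replicating cells over the rest for 15 gene lists, 1 point a library (circle not stretched top, square stretched top, triangle stretched bottom), with dotted lines at the medians over all genes (0.03, 0.06 and −0.01). E2F and G1/S control genes lie farthest to the right (1.43, 1.24 and 0.81), and the G2/M list is above the all-gene line in both top libraries (0.23 and 0.29) and below it in the bottom library (−0.40).

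Genes of G2 and mitosis had opposite list medians in the top and bottom channels. Of the list of 47, 8 were higher and 2 lower without stretch, 9 higher and 1 lower in the stretched top, and 0 higher and 16 lower in the bottom library, with medians of 0.23, 0.29 and −0.40. The mitotic kinase gene CDK1 stood at 154 against 95.8 CPM, 165 against 102 CPM and 184 against 196 CPM, and the proliferation marker MKI67 had log2 ratios of 0.62, 0.67 and −0.21. The spindle kinase gene AURKA stood at 19.8 against 33.3 CPM, 25.4 against 32.1 CPM and 19.3 against 48.0 CPM. With cells of at least 10000 UMIs the list medians were 0.12, 0.15 and −0.42, so those of the top libraries were smaller. The CDK1 ratios of the top libraries, 0.51 and 0.46 on the log2 scale, then fell short of 1.5-fold. The rest differed between libraries more than the DNA-replicating cells did: the list summed to 3519, 3607 and 3749 CPM in DNA-replicating cells and to 3187, 3182 and 4888 CPM in the rest. The rule itself left out cells with the highest share of 4 other mitotic genes, and with those cells taken out of the rest as well the list medians were 0.66, 0.63 and −0.17.

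The cells of the mitotic top 10% had another profile. Against all other cells of their library they had G2/M list medians of 1.77, 1.72 and 1.39, histone medians of −0.84, −0.66 and −1.19 and E2F and G1/S medians of −0.07, −0.03 and −0.40. CCNE2 stood at 2.35, 2.40 and 2.43 CPM in them, below its level in the rest of each library, and FAM111B at 4.18, 2.97 and 2.55 CPM. The 8 replication genes together summed to 472, 423 and 427 CPM in mitotic cells, against 431, 387 and 573 CPM in the rest. E2F and G1/S control genes summed to 479, 470 and 366 CPM, against 436, 410 and 416 CPM. In the top libraries both sums were thus above the rest, unlike CCNE2 and FAM111B. The rule took DNA-replicating cells out of the rest, so this order is partly set by the choice. Against all other cells, DNA-replicating cells included, the 8 replication genes had medians of −0.27, −0.27 and −0.68 in mitotic cells. CDK1 stood at 240, 234 and 365 CPM in mitotic cells, above its level in DNA-replicating cells of the same library in each case.

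Ordering all cells of a library by the replication share and dividing them into 10 equal groups showed how far these levels followed the order. E2F and G1/S control genes summed to 217 CPM in group 1 and 916 in group 10 of the not stretched top library, 198 and 811 in the stretched top and 160 and 675 in the bottom, and they climbed at every step in each library. Origin licensing genes climbed from 410 to 1920 CPM, from 369 to 1663 CPM and from 382 to 1689 CPM, also at every step. Histone genes stayed between 204 and 230 CPM through group 4 of the not stretched top library and reached 885 CPM in group 10. G2/M genes did not follow the order to its end: they peaked at 4461 CPM in group 7 of the not stretched top, 4089 CPM in group 7 of the stretched top and 7035 CPM in group 4 of the stretched bottom library, and stood at 3573, 3652 and 3755 CPM in group 10. Groups 8 and 9 also had more UMIs per cell than group 10 in all 3 libraries, and the part of depth in the order was not tested beyond the thinned ranking.

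**Figure D3:**
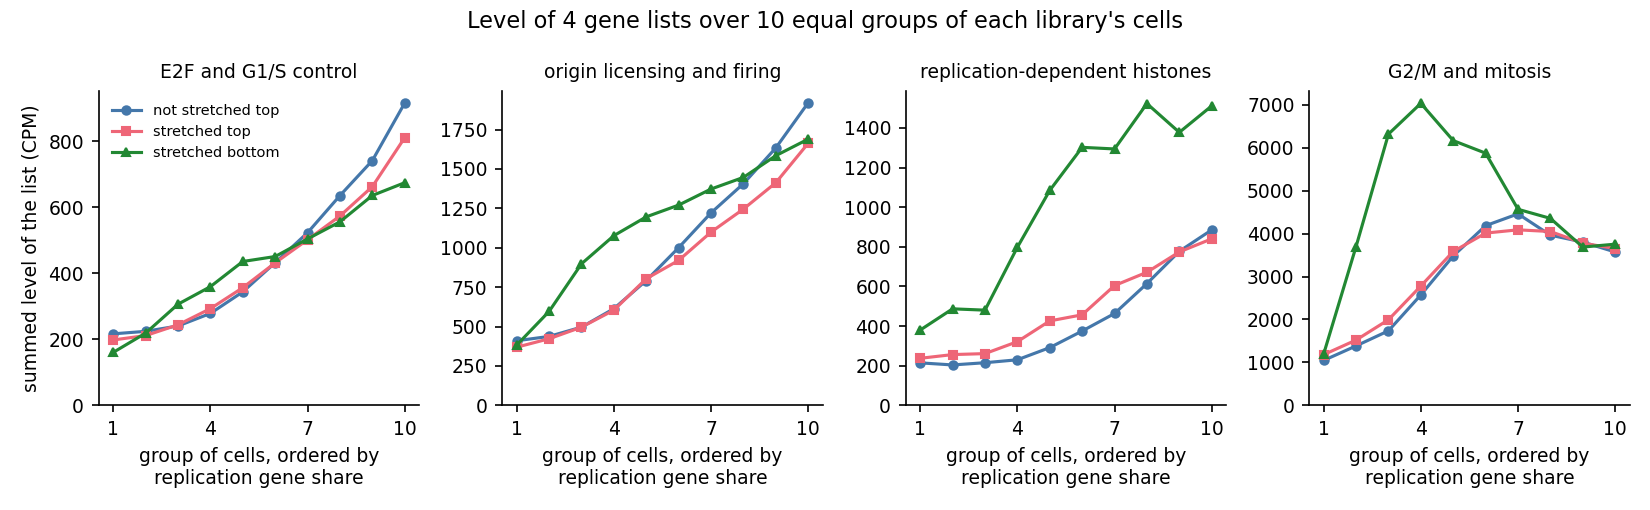
Summed level in CPM of 4 gene lists in 10 equal groups of cells ordered by the share of the 8 replication genes, 1 line a library, with all axes starting at 0. E2F and licensing genes climb through all groups (217 to 916 CPM for E2F and G1/S genes in the not stretched top library), while G2/M genes peak in group 7 of both top libraries and in group 4 of the bottom library.

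DNA-replicating cells also differed among themselves. They were divided at the median of their UMI share of replication-dependent histones, a division chosen after earlier values were seen, into 728 histone-high and 728 histone-low cells, 836 and 837, and 81 and 82 in library order. The histone genes summed to 1305 against 350 CPM, 1275 against 330 CPM and 2137 against 608 CPM by that choice. Over all genes, 0.606%, 0.833% and 3.17% were at least 1.5-fold higher in histone-high cells and 0.757%, 0.619% and 3.12% lower, with medians of −0.01, 0.01 and 0.01. Of 44 G2/M genes, 18, 23 and 23 were higher and 0 lower, with medians of 0.51, 0.61 and 0.60. The median of E2F and G1/S control genes was 0.02, −0.06 and −0.09. The 8 replication genes, on which all of these cells were chosen, summed to 1432 against 1425 CPM, 1282 against 1283 CPM and 1293 against 1321 CPM, and nothing is read from these sums. Markers of the apolipoprotein and liver-like list were lower in histone-high cells of the top libraries, in 8 of 8 and 4 of 8 cases, with 0 higher and medians of −1.04 and −0.55. That list summed to 197 against 450 CPM and 243 against 333 CPM, and APOA1 stood at 72.9 against 160.9 CPM and 65.1 against 128 CPM. In the stretched top library APOA2 (43.0 against 38.0 CPM) and FABP1 (34.1 against 27.5 CPM) went the other way, short of 1.5-fold. Histone-high cells had a median of 15709.5 against 11861 UMIs, 12136.5 against 9948 UMIs and 50798 against 35617 UMIs, and the part of this depth difference and of the apolipoprotein markers in the G2/M values was not tested.

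**Figure D4:**
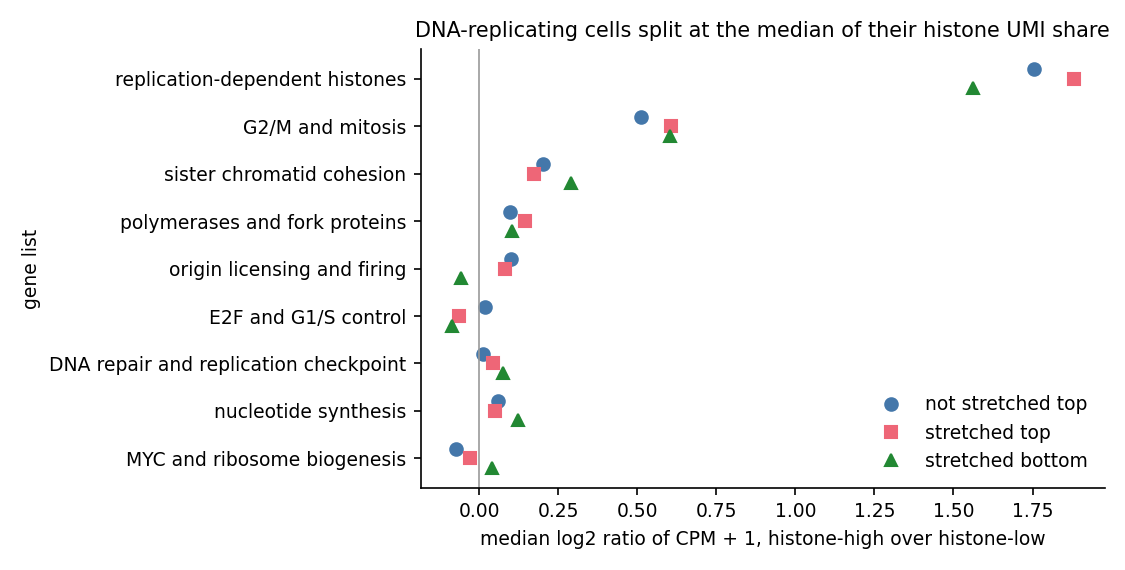
Median log2 ratio of CPM + 1 of histone-high over histone-low DNA-replicating cells for 9 gene lists, 1 point a library. The histone list is high by choice (1.75, 1.88 and 1.56), the G2/M list lies at 0.51, 0.61 and 0.60, and the E2F and G1/S list lies at 0.02, −0.06 and −0.09.

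The 9 genes outside the rule that were lower in all 3 libraries were KDM5B, KDM6B, TNFAIP8L1, AHNAK2, MXD4, NAALADL2, PLEKHG1, TSPAN31 and SNCG. KDM5B, a histone H3 lysine demethylase (ENSG00000117139, chromosome 1, 202724495 to 202809470), stood at 13.9 against 50.7 CPM, 13.4 against 40.4 CPM and 6.06 against 23.4 CPM, which is 3.65-fold (3.25 to 4.11), 3.02-fold (2.67 to 3.42) and 3.87-fold (2.85 to 5.39) lower. It was the lowest of the 9 in each library, and mitotic cells held 38.1, 33.4 and 24.8 CPM of it. KDM6B, another histone demethylase, stood at 7.94 against 18.0 CPM, 5.40 against 12.8 CPM and 6.63 against 15.2 CPM. MXD4, a dimerisation partner of MAX that opposes MYC, stood at 23.9 against 48.7 CPM, 24.1 against 44.2 CPM and 5.05 against 11.4 CPM. MYC itself stood at 72.0 against 102 CPM, 77.8 against 95.2 CPM and 94.9 against 138 CPM and did not pass 1.5-fold. KDM5B, KDM6B, TNFAIP8L1, AHNAK2 and MXD4 stayed past 1.5-fold in each library under every alternative run, and the other 4 did not.

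Of hypoxia-induced genes, 9 of 22, 6 of 20 and, in the bottom, 0 of 18 were past 1.5-fold lower in DNA-replicating cells and 0 higher, with medians of −0.49, −0.37 and −0.01. NDRG1, which is induced under hypoxia, stood at 52.4 against 120 CPM, 87.0 against 142 CPM and 42.1 against 49.4 CPM, and the secreted lipase inhibitor ANGPTL4 at 11.9 against 27.3 CPM, 10.1 against 16.4 CPM and 11.5 against 12.3 CPM. Neither gene passed 1.5-fold in the bottom library, where the rest also held less of both. With cells of at least 10000 UMIs both fell short of it in the stretched top too, at −0.46 for NDRG1 and −0.54 for ANGPTL4 on the log2 scale. The difference between channels was not tested. SOX4, a transcription factor of progenitor cells, stood at 122 against 223 CPM, 116 against 184 CPM and 141 against 142 CPM. Its list of WNT targets and stem cell genes had medians of −0.08, −0.07 and −0.04. Of 9, 9 and 7 genes, 2, 1 and 0 were past 1.5-fold lower and 0, 1 and 0 higher. The tight junction gene CLDN4 stood at 154 against 254 CPM, 156 against 222 CPM and 163 against 253 CPM. Of 13 epithelial genes, 2, 1 and 1 were past 1.5-fold lower and 0 higher, with medians of −0.06, −0.01 and −0.16.

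Interferon-stimulated genes were past 1.5-fold lower in 4 of 27, 2 of 25 and 1 of 12 cases, with medians of −0.31, −0.26 and −0.14 and 0 higher. Heat shock genes had medians of 0.25, 0.26 and 0.03 and genes of ribosome biogenesis and MYC targets 0.31, 0.27 and −0.04, with 0 genes past the line in either direction in any library. NCL, the nucleolar protein nucleolin, stood at 946 against 659 CPM, 884 against 609 CPM and 979 against 884 CPM. G1 cyclins and inhibitors of cyclin-dependent kinases stayed near the all-gene medians, at 0.02, −0.03 and 0.05, with 1 and 2 lower in the top libraries and 0 in the bottom. VIM, a mesenchymal intermediate filament gene, stood at 6.40 against 5.85 CPM, 9.14 against 7.72 CPM and 7.93 against 29.02 CPM, but 4 cells held 60.3% of its UMIs in the rest of the bottom library. Markers of the apolipoprotein and liver-like list were past 1.5-fold lower in DNA-replicating cells of the top libraries in 2 of 8 and 3 of 8 cases and higher in 0, with medians of −0.27 and −0.28, and 0 reached 10 CPM in the bottom. TTR, the thyroid hormone carrier, had the lowest ratios of the list, at 7.15 against 20.7 CPM and 8.59 against 24.1 CPM in the top libraries. Cells with at least 5 UMIs of APOA1, APOA2, FABP1 and TTR together made up 2.54% of DNA-replicating cells and 2.58% of the rest in the not stretched top library, 1.91% and 2.46% in the stretched top, and 0 cells in the bottom.

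A rule of 10% per library fixes how many DNA-replicating cells each has, so frequency was compared at a shared level instead. The level was where the top 10% of the not stretched top library began, set anew in each setting. The share of that library is thus fixed near 10%, and lies above it where cells tie at the level. After thinning every cell to 5000 UMIs, 12.8% of cells in the not stretched top library (12.2 to 13.3), 9.86% in the stretched top (9.42 to 10.3) and 16.9% in the stretched bottom (15.1 to 18.8) held at least 6 UMIs of the 8 genes. The stretched top library was lowest and the bottom library highest. Thinned to 10000 UMIs, which leaves 9538, 9094 and 1550 cells of that depth, 12.7%, 7.94% and 13.2% held at least 12 UMIs. The intervals of the not stretched top (12.1 to 13.4) and the bottom (11.6 to 15.0) overlapped there. These intervals count cells, which are not replicates, so they do not decide whether groups differ. Without thinning the level was 1139 PPM and the values were 10.0%, 6.72% and 9.71%, the first of them fixed by the choice of level. The stretched top library was lowest in each of these settings, but 1 library a group does not separate stretch from other differences between libraries.

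Levels within DNA-replicating cells were then compared between libraries, first stretched top against not stretched top, which asks what differs with stretch in cells that stayed in the top channel. Of 9073 genes 26 were higher (0.287%) and 66 lower (0.727%) with stretch. The median over all genes was −0.12, and under TMM scaling, which shifts the ratios by 0.13, the counts were 68 higher and 19 lower. DDIT4, an inhibitor of mTORC1 signalling, stood at 29.2 CPM with stretch and 92.6 CPM without, against 45.3 and 100.1 CPM in the rest. DDIT3, the stress-induced factor CHOP, stood at 19.6 and 52.5 CPM, against 23.0 and 39.1 CPM in the rest. Both were lower with stretch in DNA-replicating cells and in the rest, and the ratio was larger in DNA-replicating cells. CITED1, a transcriptional coactivator gene, stood at 18.1 and 6.91 CPM, against 22.0 and 12.5 CPM in the rest. Of 8847 genes compared in both sets, DDIT3 was the 1 whose ratio in DNA-replicating cells differed by 1.5-fold or more from its ratio in the rest.

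E2F2 was among the genes lower with stretch, at 15.7 and 24.5 CPM in DNA-replicating cells and 5.09 and 6.04 CPM in the rest. The lists of the replication programme lay near the median of all genes (−0.12) in this comparison. Both sets were chosen for a high replication share at close cuts, so near levels are partly set by the choice. No likeness between the libraries is read from these lists. Origin licensing had a median of −0.19 with 0 of 28 genes past 1.5-fold, polymerase and fork proteins −0.16 with 0 of 31, and E2F and G1/S control −0.28 with 2 of 15 lower. These were E2F2 and E2F8, and under TMM scaling their log2 ratios were −0.49 and −0.50, short of 1.5-fold. The same lists had medians of −0.13, −0.13 and −0.11 in the rest. Of 21 hypoxia-induced genes, 1 was higher and 2 were lower with stretch in DNA-replicating cells (median −0.00), against 0 higher and 5 lower of 22 in the rest (median −0.15). The higher gene was NDRG1, at 87.0 CPM with stretch and 52.4 CPM without in DNA-replicating cells and at 142 and 120 CPM in the rest, and DDIT4, given above, was one of the lower pair.

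Stretched bottom against stretched top asks what differs between invaded cells and those that stayed. This comparison shares the stretched top library with the last one, so the pair are not set against each other. Of 8866 genes 384 were higher (4.33%) and 1020 lower (11.5%) in DNA-replicating cells of the bottom library, and TMM scaling gave 656 higher and 699 lower. Interferon-stimulated genes were lower in 23 of 24 cases and higher in 0, with a median of −2.32 against −2.34 in the rest. IFI6 stood at 38.2 CPM in the bottom and 882 CPM in the top, and IFIT1 at 2.45 and 59.9 CPM. The apolipoprotein gene APOA1 stood at 0.721 and 93.5 CPM, and FABP1 and AGR2, listed at 0 UMIs in the bottom, at 31.1 and 21.3 CPM in the top, which is at least 71.9-fold and 49.1-fold higher against a floor of 3 UMIs over the bottom set. The rest showed these gaps too, with 51.4 and 1075 CPM for IFI6, 4.84 and 96.1 CPM for IFIT1 and 0.811 and 112.5 CPM for APOA1.

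Lists of the replication programme had medians of −0.04 for origin licensing, −0.21 for E2F and G1/S control and 0.13 for polymerase and fork proteins in this comparison, against −0.09 for all genes. Past 1.5-fold, 1 of 28 origin licensing genes was lower and 0 higher, 4 of 15 E2F and G1/S control genes were lower and 0 higher, and 3 of 32 polymerase and fork genes were higher and 1 lower. TFDP1, the dimer partner of the E2F factors, stood at 72.8 CPM in the bottom and 162 in the top, E2F1 at 17.2 and 31.0 CPM and E2F2 at 10.1 and 15.7 CPM, and under TMM scaling E2F2 fell short of 1.5-fold. In the rest these 3 lists had medians of 0.36, 0.13 and 0.39. Both sets of DNA-replicating cells were chosen for a high replication share, which partly sets their levels and their gap to the rest. No likeness between the libraries is read from these lists. Replication-dependent histones were higher in 14 of 16 cases in DNA-replicating cells of the bottom library, with a median of 1.11, and 1.07 in the rest. G2/M genes had a median of −0.13 in DNA-replicating cells and 0.56 in the rest: AURKA stood at 19.3 CPM in the bottom and 25.4 in the top in DNA-replicating cells and at 48.0 and 32.1 in the rest, and PLK1, which the rule used, at 24.2 and 29.5 CPM and at 69.3 and 42.4 CPM. The rule took cells of the mitotic top 10% out of the DNA-replicating cells and left them in the rest. The G2/M gap between these sets is thus partly set by the choice. Of 8646 genes compared in both sets, 171 differed by 1.5-fold or more between the ratios. The highest ratios of this comparison rested on few cells, since GCKR had its UMIs in 4, RIC3 in 3 and C14orf39 in 1 DNA-replicating cell of the bottom library.

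**Figure D5:**
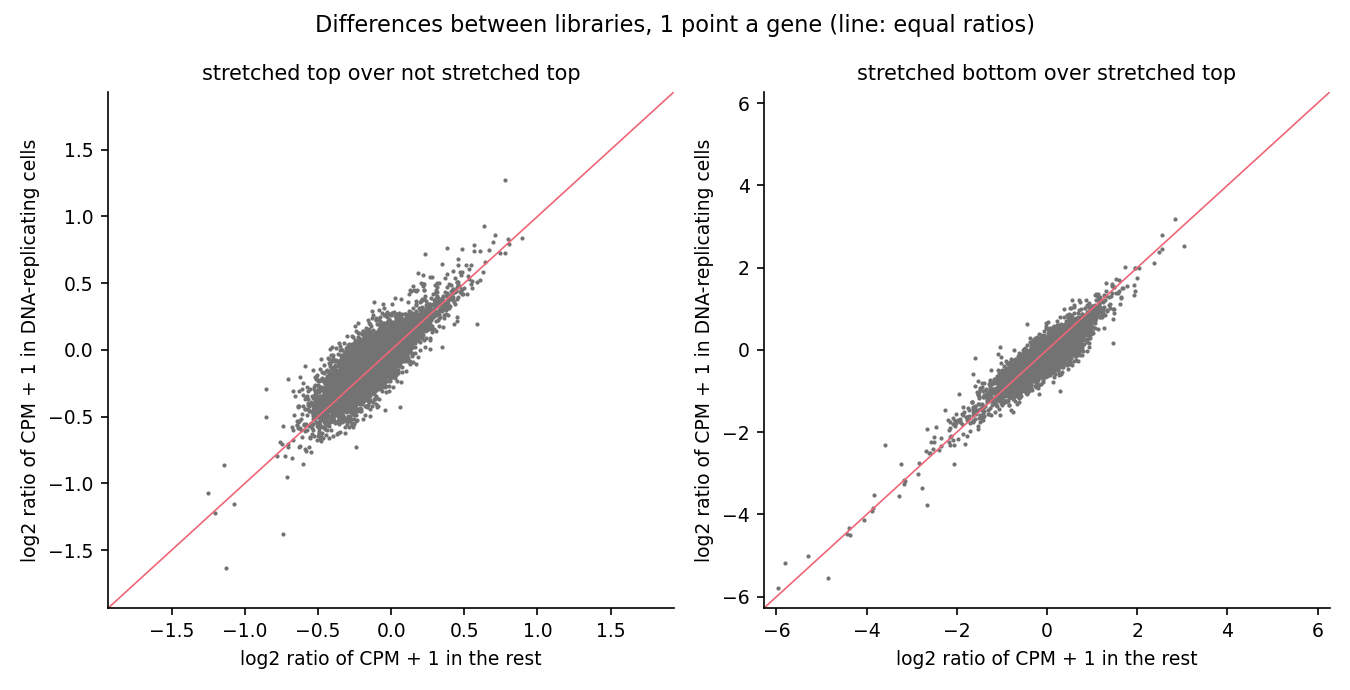
Log2 ratio of CPM + 1 between libraries in the rest (horizontal axis) and in DNA-replicating cells (vertical axis), 1 point a gene, for stretched top over not stretched top (left) and stretched bottom over stretched top (right), with the line of equal ratios; the axes of the panels differ. Of 8847 genes on the left 1 lies 1.5-fold or more from the line, and of 8646 on the right 171 do.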

How the data were processed

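Droplet 3′ libraries were made from GFP-sorted HCT116 cells, 1 library for each of 3 groups, per the labels' protocols. The deposited values are raw UMI counts per gene and barcode from Cell Ranger 7.0.0, per the file headers, on hg38, per the submitters' processing notes; the annotation release and whether intronic reads were counted are not given in the sources used here. The files hold 19912 features, 13 of them mitochondrially encoded. The members and gene lists were chosen with earlier results of these data known. No doublet caller was run, and 1 alternative leaves out the 5% of cells with the most UMIs.

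Counts were summed over cells and divided by their total (CPM). Ratios are log2 of (CPM + 1), for genes with at least 10 CPM on either side, and 1.5-fold was the line. Intervals of ratios are exact conditional binomial, those of shares Clopper-Pearson, at 95%. Cells and UMIs were drawn with a fixed seed for thinning and splitting, and the code was tested on simulated data. Cells kept had a median of 10241 to 45681.5 UMIs outside the chosen set. Named genes were the 12 of the rule, up to 4 highest and 2 lowest of each list, the 10 highest and lowest in all 3 libraries, the 10 highest and lowest between libraries with 5 each way differing most from the rest, EPCAM and VIM; ORC1, ORC5, ORC6, CDT1, GMNN, POLD3, MKI67, UHRF1 and HIST1H2BN were named after their values were seen. Python 3.11.15, numpy 2.4.6, scipy 1.17.1, pandas 2.3.3 and matplotlib 3.10.9 were used, and edgeR 4.0.16 in R 4.3.3 gave TMM factors only. Gene coordinates come from GENCODE release 29 and promoters from RefSeq. Alternatives covered ranking after thinning, split counts, a top 5%, a minimum of 10000 UMIs, cell weights, depth matching, scaling, the pseudocount and the minimum level.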

Additional observations from a re-analysis of the deposited data

Results flagged for a closer look

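RTKN2 had opposite directions in 2 libraries: its log2 ratio of DNA-replicating cells over the rest was 0.59 in the not stretched top library, 0.63 in the stretched top and −0.66 in the bottom. The difference was not tested, since each group is 1 library. In the bottom library RTKN2 stood at 32.6 CPM in DNA-replicating cells and 52.1 in the rest, against 28.9 and 18.3 CPM in the stretched top, so the libraries differed more in the rest. With separate choosing and measuring UMIs the bottom value was −0.19 and with ranking after thinning −0.35, both short of 1.5-fold.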

How the results depend on the processing

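With a minimum of 1 CPM the genes lower in DNA-replicating cells numbered 342, 177 and 436 and those higher in the bottom 410; with 50 CPM, 44, 17 and 21 were lower and 188, 140 and 63 higher. Totals without mitochondrially encoded and ribosomal protein genes gave 292, 158 and 128 lower. In the bottom library ranking after thinning gave 92 higher and 134 lower, split counts 137 lower, the top 5% 211 lower and equal cell weights 309 lower. For stretched against not stretched top, 68 were higher and 19 lower under TMM, 70 and 19 under median of ratios, 40 higher with totals without those genes, 70 and 260 at 1 CPM, 10 and 8 at 50 CPM, and split counts, the top 5% and 10000 UMIs gave 171, 152 and 101 lower. For bottom against top, 656 were higher under TMM, 695 under median of ratios, 726 with 1973 lower at 1 CPM, 196 with 228 lower at 50 CPM, and 1612 lower with totals without those genes. Cells above the shared level were 7.94% and 13.2% in the stretched top and bottom when thinned to 10000, 10.0%, 6.72% and 9.71% without thinning and 18.8%, 15.5% and 26.4% with the level from the stretched top. The share of the library that gave the level is set by that choice, apart from ties. Of named genes past 1.5-fold, 61 of 79, 49 of 69 and 48 of 67 stayed past it under every alternative run in the order of libraries, 21 of 28 with stretch and 55 of 80 in the bottom. Directions turned in the bottom against the rest for BTC (−0.78 thinned, −0.73 in the top 5%), RIC3 (−1.36), GRIA4 (−0.14 and −0.021), C14orf39 (−1.76), TMC5 (−0.37 and −0.79) and IFI27 (0.069 thinned, 0.19 split), between tops for FABP1 (−0.42), and between bottom and top for RIC3 (−0.0013), C14orf39 (−0.29) and TMC5 (−0.45 and −0.79); the cause was not tested. In the bottom library CDCA5, ESCO2 and RAD54L fell short of 1.5-fold when ranked after thinning, with lowest values over the alternatives of 0.57, 0.47 and 0.54. No paired analysis was possible because the labels give no replicate numbers and each group is 1 library. The bottom set of 163 cells limits that library most, since genes near 10 CPM there rest on few cells.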
